A study of Mus musculus with 24 samples.

Results

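Gene expression on day 4 in lactic acid was compared with control culture in 4T1 cells, an established mouse mammary carcinoma line that grows as a metastatic tumour in its host strain. The 3 arrays titled day 4 and the 3 titled control were taken by their titles, 6 of the 24 arrays of the series, and all 19938 genes with a value were tested. Control cells were kept in RPMI-1640 with 3 mM glucose, a low supply, and day 4 cells in the same low glucose with 20 mM lactic acid added for 4 days, so the low glucose was common to both. The series asked which genes change over time as lactic acid extends the life of glucose-starved cells, and it sampled 7 times in lactic acid, of which days 3 and 5 served here as the neighbours of day 4. The labels do not give the culture time of the control cells, so lactic acid and time in culture cannot be told apart. They call the 3 arrays of each group biological replicates but do not say that each was grown apart from the others. So each p-value reflects only how far arrays differ within groups, pooled over all 24 arrays, which may be technical.

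Lactate enters and leaves cells with a proton through monocarboxylate transporters and is interchanged with pyruvate by lactate dehydrogenase, and pyruvate can then feed the mitochondria or the building of glucose. Cells that run short of fuel or building blocks commonly leave the division cycle, slow the making of lipids and ribosomes, and turn to breakdown of stored fat and of their own parts. Stress inside the endoplasmic reticulum, where secreted proteins fold, switches on a set of chaperone and disposal genes, and interferon signalling switches on a set of antiviral genes.

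Values are log2 array levels, in which a difference of 1 is a 2-fold change. A gene was called when limma's adjusted p was below 0.05. Array medians lay between 4.46 and 4.55 in control and between 4.49 and 4.54 on day 4, and a gene whose control level lies near or below that is dim, so the size of its fold is uncertain. Replicates of control correlated at 0.995 to 0.9972 across genes and those of day 4 at 0.995. Among 9 epithelial markers the mean level was 6.92 to 6.95 in control and 7.10 to 7.12 on day 4. Of these markers 3 were called higher (Epcam, Cdh1 and Cldn4), 1 lower (Krt19) and 5 were not called, among them the keratin Krt8 at 11.15, 11.04 and 11.16 in control and 10.64, 10.81 and 10.88 on day 4. The adhesion molecule Epcam, at 4.10, 4.10 and 4.16 in control, was near background. In all 6 arrays, 8 of 9 leukocyte markers, 6 of 6 endothelial and 5 of 5 adipocyte markers lay below 5. Of 8 fibroblast markers 2 were higher on day 4, the receptors Pdgfra and Pdgfrb, while Dcn was at 2.88, 2.58 and 2.90 in control and 2.93, 2.71 and 2.63 on day 4.

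Day 4 differed widely from control. Of the 19938 genes 5369 were called, or 26.9%, with 2799 higher (14.0%) and 2570 lower (12.9%), and the median difference over all genes was 0.00. At a fold of at least 8, 14 called genes were higher and 36 lower. Of the called genes, 2784 of those higher and 2558 of those lower had no overlap between the 3 day 4 and the 3 control arrays, but such separation was common, since over all 19938 genes, called or not, 4789 lay wholly higher and 4712 wholly lower. The lower genes were led by cell division, DNA replication and sterol synthesis, and the higher genes by endoplasmic reticulum chaperones, interferon-response genes and a few secreted proteins. The plot of gene lists gives the difference for each measured member. The 14.0% higher and 12.9% lower are the shares beside which every list count against control should be read. Krt8, Mki67, Srebf2, Ern1, Xbp1, Atf6, Hspa5, Hsp90b1, Lcn2 and Dbp are named outside the naming rule and were chosen after their values were seen.

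**Figure D1:**
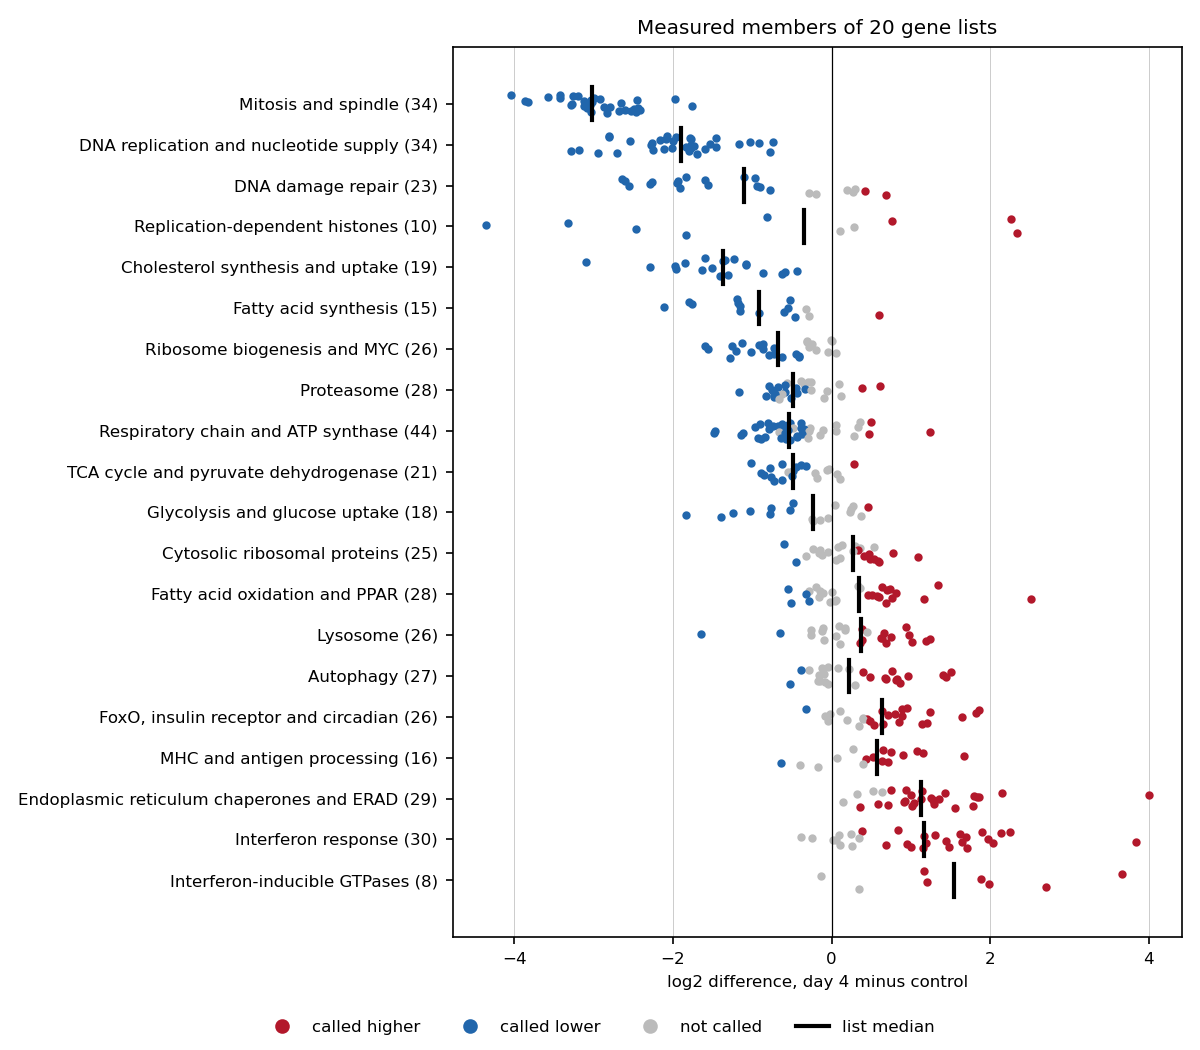
Log2 difference between day 4 and control (x axis) for each measured member of 20 gene lists (rows, number of measured genes in brackets), with red points called higher, blue points called lower, grey points not called and a black bar at the list median. All 34 mitosis genes lie left of 0 with a median of -3.02, and the interferon-inducible GTPases lie farthest right with a median of 1.54.

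The genes of mitosis fell together. All 34 measured members of the mitosis and spindle list were called lower, against 12.9% of all genes, with a median difference of -3.02 and a range from -4.04 to -1.76. Plk1, the kinase that drives cells through mitosis, was at 9.87, 9.96 and 10.12 in control and at 6.15, 5.51 and 6.19 on day 4, a fall of 16.4-fold (log2 difference -4.04 ± 0.19 SE, n = 3 and 3, limma adjusted p = 4.26e-13). Kif20a, a kinesin motor of late mitosis, went from 9.13, 9.31 and 9.23 to 5.35, 5.46 and 5.36. Bub1b, which holds chromosomes back until they are attached, went from 9.73, 9.80 and 9.81 to 6.30, 6.02 and 6.27. The day 4 arrays lay below every control array by more than 3 log2 units in each of these genes. Aurka, the kinase of the spindle poles, fell by 3.42 on the log2 scale (SE 0.20) and Ccna2, a cyclin that acts from S phase into mitosis, fell by 3.43 (SE 0.25). Hmmr, a spindle and hyaluronan-binding protein, went from 7.96, 8.45 and 8.38 to 4.20, 4.54 and 4.47. Its SE was 0.43, which rests on the spread within all groups of the 24 arrays and not on these 6 values alone. Mki67, the antigen used to count cycling cells, went from 9.16, 9.34 and 9.28 to 6.03, 6.45 and 6.15, so it stayed above the array median on day 4. Also among the 12 largest falls were the mitotic genes Cep55 (-3.41), Kif22 (-3.34), Kif4 (-3.29) and Pimreg (-3.71). In such bulk RNA, fewer cells in mitosis and less of each transcript per cell cannot be told apart.

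**Figure D2:**
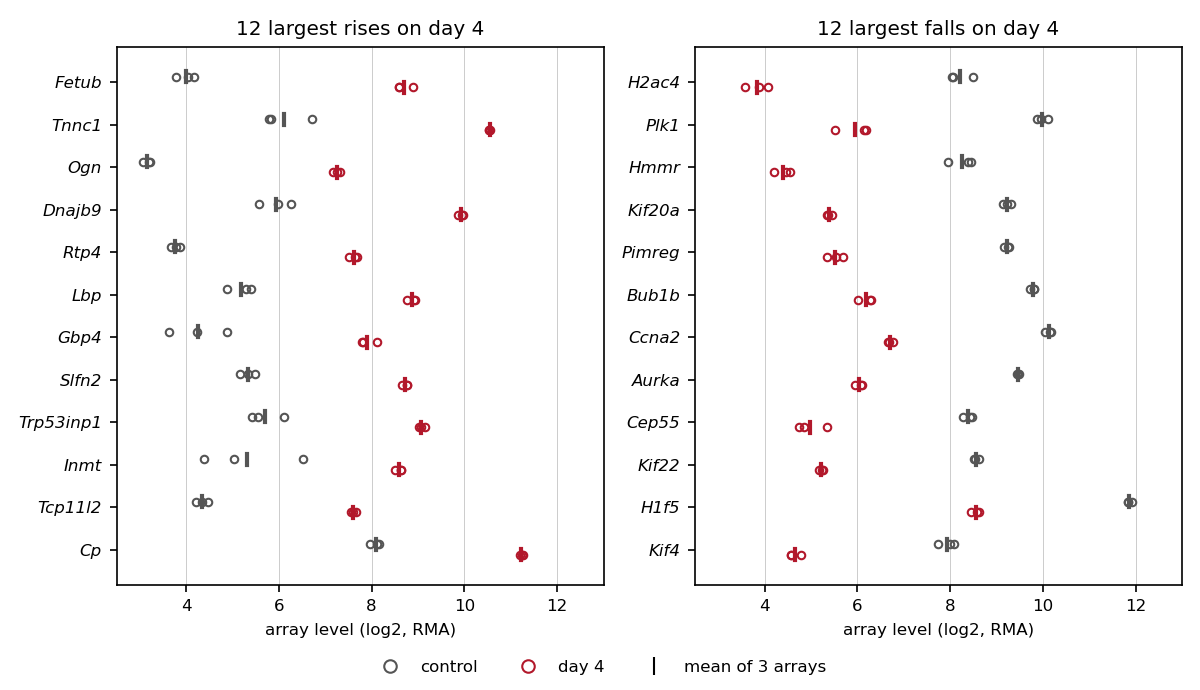
Log2 array level (x axis) of the 12 genes with the largest rise (left) and the 12 with the largest fall (right) on day 4, with grey circles for the 3 control arrays, red circles for the 3 day 4 arrays and bars for their means. No gene shown has overlapping groups, which was a condition of choosing them. Control replicate 1 lies apart from the other controls in Tnnc1 (6.71) and Inmt (6.51).

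Promoters of the mitosis list were searched for short motifs. The motif TTTGAA, the core of the cell cycle homology region, was searched on both strands from 250 bases before to 50 after the RefSeq start, with CCAAT, the box bound by NF-Y. TTTGAA was in 24 of 29 mitosis promoters (82.8%) and in 17.3% of those of the 15563 tested genes with a promoter entry, while CCAAT was in 22 of 29 (75.9%) and in 41.7% of all. Among DNA replication genes the shares were 13.3% for TTTGAA and 66.7% for CCAAT. Among all genes called lower on day 4 than control they were 16.4% and 44.9%. The next 3 promoters, of mitotic genes with falls of over 3 log2 units, are printed from RefSeq (GRCm38.p6) with both motifs in capitals to show where they lie. The regions are chr7:122159185-122159484 on the plus strand for Plk1, chr2:118597961-118598260 on the plus strand for Bub1b and chr2:172370521-172370820 on the minus strand for Aurka.
Plk1: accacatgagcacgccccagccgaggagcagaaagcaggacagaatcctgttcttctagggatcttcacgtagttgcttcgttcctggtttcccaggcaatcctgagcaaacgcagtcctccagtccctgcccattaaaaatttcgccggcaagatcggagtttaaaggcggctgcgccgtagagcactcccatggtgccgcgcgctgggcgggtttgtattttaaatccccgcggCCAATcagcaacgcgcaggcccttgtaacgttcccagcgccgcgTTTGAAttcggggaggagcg
Bub1b: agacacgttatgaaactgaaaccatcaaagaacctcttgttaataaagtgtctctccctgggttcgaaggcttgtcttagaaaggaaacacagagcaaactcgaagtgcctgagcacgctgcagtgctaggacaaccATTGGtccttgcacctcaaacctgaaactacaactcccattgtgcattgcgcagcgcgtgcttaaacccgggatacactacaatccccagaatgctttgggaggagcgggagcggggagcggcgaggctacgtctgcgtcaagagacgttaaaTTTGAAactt
Aurka: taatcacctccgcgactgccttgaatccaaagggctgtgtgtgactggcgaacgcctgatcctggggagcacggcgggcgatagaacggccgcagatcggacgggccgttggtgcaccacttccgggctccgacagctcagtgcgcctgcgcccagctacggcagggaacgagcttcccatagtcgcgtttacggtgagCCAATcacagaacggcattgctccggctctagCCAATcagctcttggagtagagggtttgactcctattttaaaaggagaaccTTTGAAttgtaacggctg
In these promoters TTTGAA began 31, 41 and 33 bases after the start, in the order Plk1, Bub1b and Aurka. The CCAAT box of Bub1b stands on the opposite strand, so it reads ATTGG. A match is a description of the letters and was not tested as a binding site.

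DNA replication genes fell as a group and less far. All 34 measured members were called lower, with a median of -1.90 and a range from -3.28 to -0.74. Tk1, which salvages thymidine for DNA, went from 9.65, 9.73 and 9.77 to 6.36, 6.63 and 6.32. Rrm2, the ribonucleotide reductase subunit that limits the supply of DNA building blocks, went from 10.18, 10.18 and 10.17 to 7.12, 6.99 and 6.87. Both had no overlap between groups, and their log2 differences were -3.28 (SE 0.16, limma adjusted p = 3.71e-13) and -3.19 (SE 0.12, limma adjusted p = 1.4e-14). Uhrf1, which keeps DNA methylation through replication, fell by 2.94 (SE 0.17). Of 23 repair genes 16 were called lower and 2 higher, against 12.9% and 14.0% of all genes, with a median of -1.10. The homologous recombination factor Rad54l fell by 2.64 (SE 0.14), and the nucleotide excision protein Xpa was higher by 0.68 (SE 0.12). Among 24 genes that gate entry into the cycle, 13 were lower and 4 higher, against 12.9% and 14.0% of all genes. E2f8, a repressor of the cell cycle programme, went from 8.44, 8.39 and 8.43 to 5.86, 5.83 and 5.78, and the pocket protein Rb1 was higher by 0.77 (SE 0.14). Cdkn1b, an inhibitor of cyclin-dependent kinases, was higher by 0.79, and its other probe set differed by 2.62, so the direction was shared and the size was not. Ccnd1, the cyclin of G1, went from 11.69, 11.45 and 11.53 to 10.96, 10.92 and 10.85 (limma adjusted p = 0.00989), which was 0.05 without control replicate 1.

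Histone genes split. Of the 10 measured replication-dependent histones 5 were called lower and 3 higher, against 12.9% and 14.0% of all genes. These histone copies are so alike that probe sets may not tell them apart. H2ac4, an H2A histone, went from 8.05, 8.49 and 8.07 to 4.08, 3.57 and 3.87, the lowest difference of all genes (-4.36 ± 0.27 SE). The linker histone H1f5 went from 11.93, 11.84 and 11.83 to 8.58, 8.63 and 8.45. The H2B histone H2bc8 went the other way, from 5.56, 5.74 and 5.46 to 8.13, 8.07 and 7.57 (2.34 ± 0.25 SE, limma adjusted p = 8.03e-08), and the linker histone H1f2 from 6.96, 6.46 and 6.83 to 9.02, 9.00 and 9.01. In each of these 4 genes the groups did not overlap.

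Sterol synthesis fell across its whole path. All 19 measured genes of cholesterol synthesis and uptake were called lower, with a median of -1.37 and a range from -3.10 to -0.43. Idi1, which makes the building block of sterols, went from 9.33, 10.09 and 10.02 to 6.80, 6.69 and 6.64, with the control replicates further apart than the day 4 ones (-3.10 ± 0.37 SE, limma adjusted p = 6.21e-07). Cyp51, the lanosterol demethylase, went from 7.42, 8.01 and 8.09 to 5.72, 5.54 and 5.37. Srebf2, the transcription factor that runs the pathway, fell by 1.31. In all of these genes the day 4 arrays lay below the control arrays. In fatty acid synthesis 12 of 15 genes were lower and 1 higher, against 12.9% and 14.0% of all genes. Fasn, the fatty acid synthase, went from 9.02, 9.39 and 9.54 to 7.52, 7.57 and 7.45, and the desaturase Fads2 fell by 2.11. The member called higher was the malic enzyme Me1 (0.60 ± 0.17 SE), a call that was not made without control replicate 1 (limma adjusted p = 0.0745). Every one of the 15 sterol promoters with an entry held CCAAT.

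Chaperones of the endoplasmic reticulum rose. Of 29 measured chaperone and protein disposal genes 25 were called higher and 0 lower, against 14.0% of all genes called higher, and the median was 1.13. The other 4, Canx, Pdia3, P4hb and Derl3, had differences from 0.15 to 0.64 and were not called. Dnajb9, a co-chaperone that restrains the stress sensor Ire1, went from 5.56, 5.99 and 6.25 to 9.94, 9.98 and 9.86 (SE of the difference 0.37, limma adjusted p = 1.27e-08). Pdia4, a disulphide isomerase, went from 9.32, 9.24 and 9.37 to 11.52, 11.43 and 11.42. Hyou1, a large chaperone of the compartment, went from 8.55, 8.75 and 8.72 to 10.60, 10.54 and 10.46. No day 4 array overlapped control in these genes. The sensor Ern1 was higher by 1.78, the transcription factor Xbp1 by 1.29 and the sensor Atf6 by 0.71.

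The endoplasmic reticulum stress element, CCAAT followed 9 bases later by CCACG on either strand, was in 9 of 25 promoters of this list (36.0%) and in 21 of the 15563 promoters of tested genes. Of the promoters of genes called lower on day 4, 0 held it, and of those called higher 12 did. Its CCAAT part is also a match to the shorter CCAAT motif. The promoters of Hspa5, the main chaperone of the compartment, and Hsp90b1, its Hsp90 form, are printed with the element in capitals, on chr2:34771840-34772139 of the plus strand and chr10:86705395-86705694 of the minus strand (RefSeq, GRCm38.p6).
Hspa5: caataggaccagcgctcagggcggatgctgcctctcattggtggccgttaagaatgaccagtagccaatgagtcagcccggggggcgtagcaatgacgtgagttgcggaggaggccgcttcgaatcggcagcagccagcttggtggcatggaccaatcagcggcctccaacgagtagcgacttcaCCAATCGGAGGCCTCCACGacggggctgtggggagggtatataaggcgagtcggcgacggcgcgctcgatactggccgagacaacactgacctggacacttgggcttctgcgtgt
Hsp90b1: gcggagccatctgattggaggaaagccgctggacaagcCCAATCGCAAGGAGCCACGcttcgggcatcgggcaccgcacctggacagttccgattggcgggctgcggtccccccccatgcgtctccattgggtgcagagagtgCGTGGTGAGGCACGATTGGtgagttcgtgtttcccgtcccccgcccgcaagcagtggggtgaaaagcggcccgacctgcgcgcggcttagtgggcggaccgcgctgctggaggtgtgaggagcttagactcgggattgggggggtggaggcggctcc
Hspa5 went from 12.33, 12.15 and 12.23 in control to 13.04, 12.90 and 13.04 on day 4, near the top of the array's range. Hsp90b1, whose promoter holds the element on both strands, went from 11.44, 11.42 and 11.46 to 12.37, 12.38 and 12.39. The groups did not overlap in either gene.

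Genes of amino acid stress moved in both directions. Of 29 members of the ATF4 list 11 were higher and 7 lower, against 14.0% and 12.9% of all genes. Control replicate 1 stood apart over the whole list, with a mean level of 7.86 against 7.30 and 7.29 in the other controls and 7.78 to 7.80 on day 4, and without it 14 were higher and 4 lower. Ddit3, a transcription factor of prolonged stress, went from 5.79, 4.79 and 5.00 to 7.65, 7.79 and 8.08 (2.65 ± 0.30 SE). Slc7a11, the cystine importer, went from 7.84, 6.24 and 6.43 to 8.50, 8.49 and 8.92, where control replicate 1 stood 1 log2 unit or more above the other controls. The lower members included serine and one-carbon enzymes. The mitochondrial enzyme Shmt2 went from 10.20, 9.97 and 9.82 to 8.27, 8.39 and 8.06, and the serine enzymes Psat1 and Phgdh fell by 1.46 and 1.07. Atf4 itself was at 9.26, 8.99 and 9.04 in control and 9.28, 9.26 and 9.10 on day 4 and was not called.

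Interferon-response genes rose from low levels. Of 30 measured members 21 were called higher and 0 lower, against 14.0% and 12.9% of all genes, with a median of 1.16. The list's mean level was 4.85 to 4.91 in control and 5.94 to 6.03 on day 4, and 10 of its members lay below 5 in all 6 arrays. Rtp4, an interferon-induced receptor transporter, went from 3.86, 3.67 and 3.78 to 7.69, 7.52 and 7.63 (3.84 ± 0.13 SE, limma adjusted p = 1.76e-15). Irf7, the factor that amplifies interferon production, went from 4.98, 4.86 and 4.83 to 7.27, 7.40 and 6.77, and Usp18, which removes the interferon-induced tag ISG15 from proteins, from 3.95, 3.88 and 4.15 to 6.20, 6.23 and 5.96. All 3 were dim in control and above the median on day 4 with no overlap. The list was not raised throughout: Rsad2 was at 4.00, 4.04 and 3.80 in control and 3.65, 3.33 and 3.69 on day 4, and Mx1, Mx2, Ifit3 and Zbp1, also well-known interferon-induced genes, had differences from 0.02 to 0.11 and were not called. Of 8 interferon-inducible GTPases, which attack the vacuoles of microbes inside cells, 6 were higher. Irgm1 went from 4.24, 4.51 and 4.54 to 7.26, 7.04 and 7.10 and Gbp4 from 4.88, 4.24 and 3.62 to 7.79, 8.11 and 7.82, and Gbp copies resemble each other closely. Slfn2, a family member induced by interferon that has near copies, went from 5.49, 5.33 and 5.17 to 8.76, 8.76 and 8.66.

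The core of the interferon-stimulated response element, searched as GAAA followed 2 bases later by GAAA on either strand, was in 9 of 21 interferon-response promoters (42.9%), in all 4 GTPase promoters with an entry, and in 3.9% of all. Of the promoters of genes called higher on day 4 it was in 3.6%. The promoter of Irgm1, on chr11:48871371-48871670 of the minus strand (RefSeq, GRCm38.p6), is printed with its overlapping matches in capitals, which begin 30 and 24 bases before the start (positions -30 and -24).
Irgm1: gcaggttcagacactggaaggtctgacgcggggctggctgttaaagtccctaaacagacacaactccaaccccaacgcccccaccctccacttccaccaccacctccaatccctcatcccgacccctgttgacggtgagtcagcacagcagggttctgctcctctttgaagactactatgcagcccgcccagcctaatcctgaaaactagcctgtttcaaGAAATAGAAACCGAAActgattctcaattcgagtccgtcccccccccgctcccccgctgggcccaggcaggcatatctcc

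Antigen presentation followed in part. Of 16 genes of MHC and antigen processing, among them the class II genes Cd74, H2-Ab1 and Ciita, 10 were higher and 1 lower. Over all genes 14.0% were higher and 12.9% lower. Psmb8, an inducible proteasome subunit that shapes peptides for display, went from 7.23, 7.03 and 7.13 to 8.81, 8.78 and 8.80, and the peptide transporter Tap2 was higher by 1.15. Nlrc5, the activator of class I genes and the only member called lower, was at -0.64 by its brightest probe set, but the mean of its 19 probe sets gave 0.03, so no direction can be given. Chemokines and cytokines gave 4 higher and 7 lower of 25, against 14.0% and 12.9% of all genes. Ccl2, which attracts monocytes, fell by 1.73, and Tslp, an epithelial cytokine, was higher by 1.73. Of 18 NF-kB subunits, inhibitors and receptors 2 were higher and 4 lower, again against 14.0% and 12.9% of all genes, with Tlr3, the sensor of double-stranded RNA, higher by 1.25 and the inhibitor Tnfaip3 lower by 0.95 (log2 difference -0.95).

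A few secreted proteins rose while most of their group was not called, and of the 3 described here Fetub alone was below the array medians in control. Of 25 acute-phase and innate proteins 7 were called higher and 0 lower, against 14.0% and 12.9% of all genes. In all 6 arrays 18 of the 25 lay below 5. Fetub, a liver-type protease inhibitor of the fetuin family, went from 4.17, 4.03 and 3.79 to 8.59, 8.90 and 8.58, and its relative Ahsg had a difference of 0.06. Lbp, which hands bacterial lipopolysaccharide to its receptors, went from 5.40, 4.87 and 5.29 to 8.94, 8.92 and 8.77. Cp, the copper oxidase ceruloplasmin, went from 8.16, 8.12 and 7.97 to 11.24, 11.26 and 11.19. In these 3 genes the groups were at least 3 log2 units apart. The siderophore binder Lcn2 was higher by 2.12, while Saa1, Saa2 and Hp, major acute-phase proteins, had differences from 0.02 to 0.08. Of 8 hepatocyte markers 7 lay below 5 in all 6 arrays.

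Single or few members of other families stood out in the same way. Ogn, a small leucine-rich proteoglycan of the matrix, went from 3.07, 3.19 and 3.23 to 7.32, 7.25 and 7.16, while its relative Dcn was not called. Of 28 matrix genes 4 were higher and 2 lower, against 14.0% and 12.9% of all genes, so the shares were near or below the background. The 2 lower ones, the collagen Col4a1 and the matrix protein Sparc, were not called without day 4 replicate 3 (limma adjusted p = 0.0551 and 0.0874). Tnnc1, the calcium-binding troponin of heart and slow muscle, went from 6.71, 5.79 and 5.83 to 10.54, 10.56 and 10.54. Of 15 troponin and contractile genes it was the only one called higher, and 4 were lower, among them Tnnt2 (-0.69) and Tnnt1 (-0.52). Over all genes the shares were 14.0% higher and 12.9% lower. Csn3, the milk protein kappa-casein, went from 7.47, 6.62 and 6.34 to 9.43, 9.40 and 9.39, while the milk proteins Csn2 and Wap had differences of 0.08 and 0.16. Of 13 genes of milk proteins and mammary secretion 4 were called higher and 0 lower, against 14.0% and 12.9% of all genes. Inmt, a methyltransferase of indoles, went from 6.51, 5.04 and 4.39 to 8.50, 8.64 and 8.64, with its controls over 2 log2 units apart. Tcp11l2 went from 4.34, 4.22 and 4.48 to 7.60, 7.56 and 7.66.

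Lactate transporters differed by less than 1 log2 unit. Slc16a1, the transporter MCT1 that carries lactate and pyruvate, was at 10.13, 10.12 and 10.09 in control and 10.51, 10.44 and 10.49 on day 4, a rise of 1.29-fold (0.36 ± 0.10 SE, limma adjusted p = 0.00882). Its chaperone Bsg fell by 0.55 (SE 0.11), and the exporter Slc16a3 (MCT4) lay near background at 4.76, 4.51 and 4.63 and at 4.31, 4.46 and 4.41. Ldha, the dehydrogenase subunit that favours lactate, went from 12.41, 12.52 and 12.55 to 11.27, 11.15 and 11.31 (-1.25 ± 0.11 SE, limma adjusted p = 6.77e-09). Ldhb, the subunit that favours pyruvate, was at 5.48, 5.14 and 5.08 and at 5.24, 4.93 and 5.37 and was not called. Mpc1, a subunit of the mitochondrial pyruvate carrier, fell by 0.68, Pdk2, which holds pyruvate dehydrogenase back, was higher by 1.14, and the lactate receptor Hcar1 stayed at background from 3.54 to 4.07. Across the 26 genes of lactate, pyruvate and their transport 4 were higher and 7 lower, against 14.0% and 12.9% of all genes.

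Genes of the TCA cycle and the respiratory chain were mostly lower, and those of glycolysis in part. Of 18 glycolysis genes 8 were lower, 1 was higher and 9 were not called, with a median of -0.24. For this and the next 2 lists, the shares over all genes were 12.9% lower and 14.0% higher. Pgam1, the phosphoglycerate mutase, went from 10.42, 10.58 and 10.72 to 8.66, 8.72 and 8.84, and Pkm, the pyruvate kinase, from 11.47, 11.46 and 11.62 to 10.19, 10.10 and 10.05. The higher member was the hexokinase Hk2 (0.46 ± 0.15 SE), and Slc2a1, the main glucose transporter, was lower by 0.48 on the log2 scale (log2 difference -0.48). Both calls were lost without some single arrays: without control replicate 2 or 3 or day 4 replicate 1 or 3 for Hk2 (adjusted p up to 0.102), and without control replicate 1 or 3 or day 4 replicate 2 for Slc2a1 (adjusted p up to 0.11). In the TCA cycle 13 of 21 genes were lower, with Cs, the citrate synthase, falling by 1.01. The 1 member called higher, the mitochondrial isocitrate dehydrogenase Idh2 (0.28), was not called without any single array of control or day 4 (limma adjusted p from 0.0727 to 0.115) or with other scaling. Of 44 respiratory chain and ATP synthase subunits 29 were lower and 3 higher, with a median of -0.54. Uqcrc1, a core subunit of complex III, went from 11.02, 10.97 and 11.06 to 9.62, 9.62 and 9.41, whereas Uqcrh, a small subunit of the same complex, went from 8.89, 8.96 and 9.11 to 10.32, 10.26 and 10.09.

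In fatty acid oxidation, the lysosome and autophagy, more genes were called higher than lower, though at most 13 in any of these lists. In fatty acid oxidation 13 of 28 genes were higher and 4 lower. For this and the next 3 lists, the shares over all genes were 14.0% higher and 12.9% lower. Cpt1a, the gate for fatty acids into mitochondria, went from 6.70, 6.95 and 6.94 to 8.32, 8.21 and 8.08, and Acot2, a mitochondrial thioesterase with near copies, from 7.70, 7.21 and 6.95 to 9.89, 9.78 and 9.74. Of 26 lysosomal genes 13 were higher and 2 lower, led by the membrane protein Scarb2 (1.24) and the acid lipase Lipa (1.19), with the glucuronidase Gusb falling by 1.64. In autophagy 12 of 27 were higher and 2 lower, a lower count that was 0 without control replicate 2, without control replicate 3 or after centring of the arrays. The higher members were led by Atg13 (1.50), Map1lc3a (1.44) and Gabarap (1.41). Of 26 genes of the insulin receptor, FoxO factors and the clock 17 were higher and 1 lower, the factor Foxo4, whose call was lost after centring and without control replicate 1, 2 or 3 or day 4 replicate 3 (limma adjusted p from 0.0655 to 0.181). Insr, the insulin receptor, went from 8.17, 7.96 and 8.01 to 9.86, 9.96 and 9.90, and Fbxo32, a ubiquitin ligase induced by FoxO, was higher by 1.64. Foxo3 itself was higher by 0.89 and the clock output factor Dbp by 1.20.

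Ribosome biogenesis genes were mostly lower. Of 26 ribosome biogenesis genes 17 were lower and 0 higher (median -0.68, 13 lower after centring of the arrays), led by the nucleolar proteins Bop1 (-1.60) and Rrp9 (-1.56). Mitochondrial ribosomal proteins gave 14 lower, 0 higher and 16 not called of 30, with a median of -0.36. Cytosolic ribosomal proteins, which have many near-identical pseudogenes, gave 9 higher and 2 lower of 25, with Rps4x from 11.16, 11.37 and 11.61 to 12.50, 12.41 and 12.51. Of the lower ones, Rpsa was at -0.45 by its brightest probe set. The mean of its probe sets gave -0.14 and was not called (limma adjusted p = 0.317). Of 28 proteasome subunits 14 were lower and 2 higher. Myc, the growth regulator, was at 10.04, 10.07 and 10.22 in control and 9.99, 10.09 and 10.22 on day 4, with a difference of -0.01 ± 0.11 SE.

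Growth arrest and survival genes changed in single members. Trp53inp1, a stress protein that promotes arrest and autophagy, went from 6.12, 5.54 and 5.43 to 9.14, 9.06 and 9.02, and Gadd45a, a damage-response protein, from 7.88, 6.79 and 6.87 to 8.69, 8.73 and 8.93. Of 22 p53-linked genes 5 were higher and 2 lower, against 14.0% and 12.9% of all genes, and Mdm2, a direct p53 target, had a difference of 0.06. Among 28 BCL2 family and caspase genes 8 were higher and 3 lower, against 14.0% and 12.9% of all genes. Bcl2, which blocks cell death, went from 7.24, 7.03 and 7.07 to 8.69, 8.68 and 8.69, and the death-promoting Bok and Bak1 fell by 1.45 and 0.91. Cflar, an inhibitor of caspase 8, was higher by 1.70 in one probe set and by 0.38 and 0.58 in the others.

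Genes of the cell surface and its surroundings also split. Pdgfra, a growth factor receptor typical of mesenchymal cells, went from 7.30, 7.19 and 7.34 to 10.22, 10.23 and 10.15 (2.92 ± 0.15 SE, limma adjusted p = 7.07e-13). Pdgfrb, its relative, was higher by 1.42 and the ligand Pdgfb fell by 0.82. Of the proteases and inhibitors 5 of 18 were higher and 5 lower, against 14.0% and 12.9% of all genes. The membrane protease Mmp14 went from 9.34, 9.27 and 9.41 to 10.77, 10.74 and 10.75, and the stromelysin Mmp10 from 6.55, 6.76 and 6.95 to 4.74, 4.87 and 4.49. Fn1, the matrix protein fibronectin, went from 9.41, 10.03 and 10.13 to 11.94, 12.02 and 11.95. The tight junction protein Cldn4 went from 5.12, 5.59 and 4.97 to 7.41, 7.27 and 7.32, while the mesenchymal filament Vim fell by 0.61. Their list of 32 epithelial junction, keratin and mesenchymal genes had 6 higher, 3 lower and 23 not called. Those shares were near the 14.0% higher and 12.9% lower of all genes. Of 25 TGF-beta and BMP genes 11 were higher and 1 lower, against 14.0% and 12.9% of all genes, with the co-receptor Tgfbr3 higher by 1.69. Tfrc, the transferrin receptor for iron uptake, fell by 2.10 (SE 0.27).

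Day 4 was then set against its neighbouring days in lactic acid, comparisons that hold no control array. Against the mean of days 3 and 5, 598 genes were called (3.00%), 198 higher on day 4 (0.993%) and 400 lower (2.01%). Against day 3 alone 262 were called (1.31%), 117 higher (0.587%) and 145 lower (0.727%), and against day 5 alone 2461 (12.3%), 655 higher (3.29%) and 1806 lower (9.06%). The balance of directions depended on the scaling. With arrays centred on their medians the counts against both days were 284 higher and 182 lower, against day 3 190 and 77, and against day 5 762 and 1049. With cyclic loess those against day 5 were 1371 and 1699. Without any single day 4 array, the count against both days was 246 to 291, and against day 3 it was 98 to 157. Without single day 3 arrays the latter was 124 to 164, and the count against day 5 was 1504 without day 4 replicate 3, 1519 without day 4 replicate 2 and 1568 without day 5 replicate 3.

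Among control and days 3, 4 and 5, the mitosis list was lowest on day 4. Of the 34 mitosis genes 32 were called lower than the mean of days 3 and 5 and 0 higher, against 2.01% of all genes, with a median of -0.99, and 26 were called lower with arrays centred on their medians. The mean level of the list was 7.09 to 7.24 on day 3, 6.07 to 6.16 on day 4 and 6.88 to 7.34 on day 5. Cdc25c, the phosphatase that starts mitosis, was at 6.20, 6.30 and 6.46 on day 3, at 5.11, 4.81 and 4.70 on day 4 and at 6.01, 6.53 and 6.68 on day 5 (-1.49 ± 0.13 SE, limma adjusted p = 8.3e-07). Aspm, a spindle pole protein, differed by -1.41 and Dlgap5, a microtubule binder, by -1.41. Kif4 differed by -1.46 and Bub1b by -1.42. In none of these genes did day 4 overlap days 3 and 5, which was a condition of choosing them. DNA replication genes gave 15 lower of 34, with a median of -0.42. Tk1 (-0.34) was not called.

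**Figure D3:**
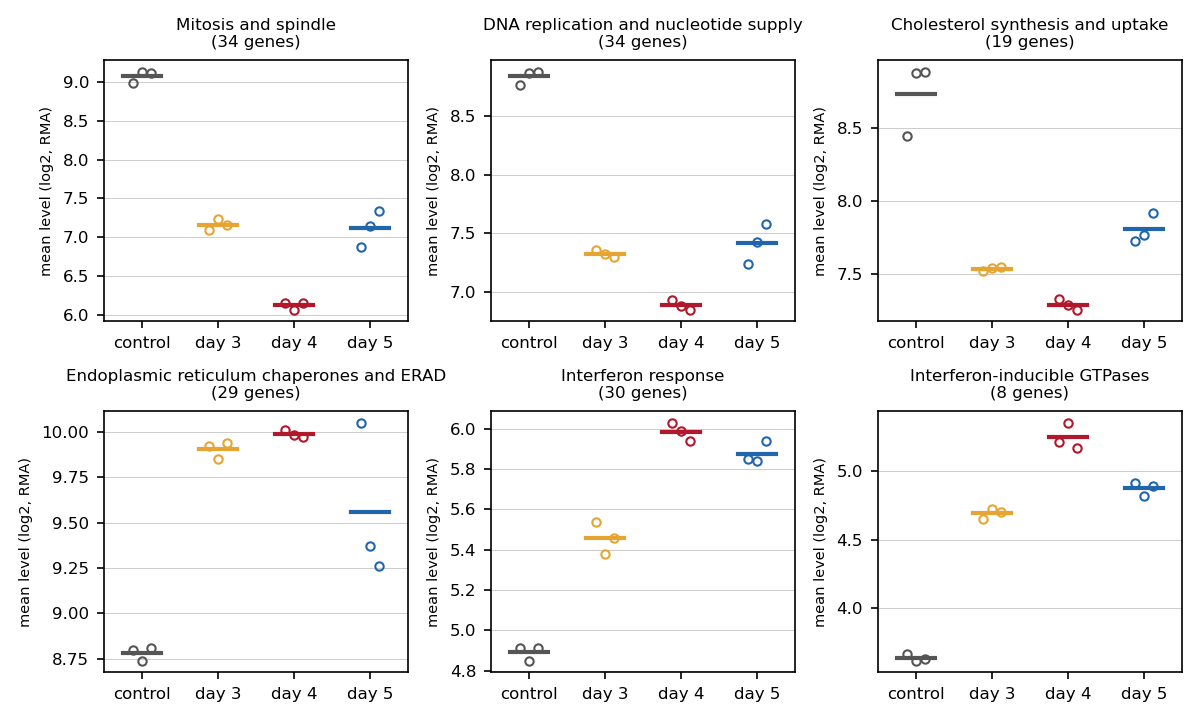
Mean log2 level (y axis, ranges differ between panels and do not start at 0) of 6 gene lists in each of the 3 arrays of control, day 3, day 4 and day 5, with circles for arrays and bars for their means. The mitosis list is at 6.07 to 6.16 on day 4 and above 6.8 in every other array, the GTPase list is highest on day 4, and for the chaperone list day 5 replicate 1 (10.05) lies apart from the other day 5 arrays.

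Part of the interferon list was higher on day 4 than on days 3 and 5, while the list means of 5.94 to 6.03 on day 4 met those of day 5 (5.84 to 5.94) and lay above day 3 (5.38 to 5.54). Of 30 members 9 were called higher than the mean of days 3 and 5, against 0.993% of all genes, with 13 higher than day 3 and 5 higher and 2 lower than day 5. Rtp4 was at 6.83, 6.20 and 6.41 on day 3, at 7.69, 7.52 and 7.63 on day 4 and at 6.49, 6.52 and 6.46 on day 5 (1.13 ± 0.11 SE, limma adjusted p = 2.82e-06). Irgm1 was at 6.23, 6.09 and 6.05 on day 3 and at 5.99, 5.76 and 6.09 on day 5, below its day 4 values in every array. Usp18 was higher than the mean of both days by 1.04. H2-T24, a class I-like gene with near copies, was higher by 1.21 and Clec2d, a ligand of natural killer receptors, by 1.11. Irf7 was different: it was 1.22 above day 3 (limma adjusted p = 0.0055), and its 3 values on day 5, at 7.79, 7.18 and 7.43, overlapped those of day 4.

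**Figure D4:**
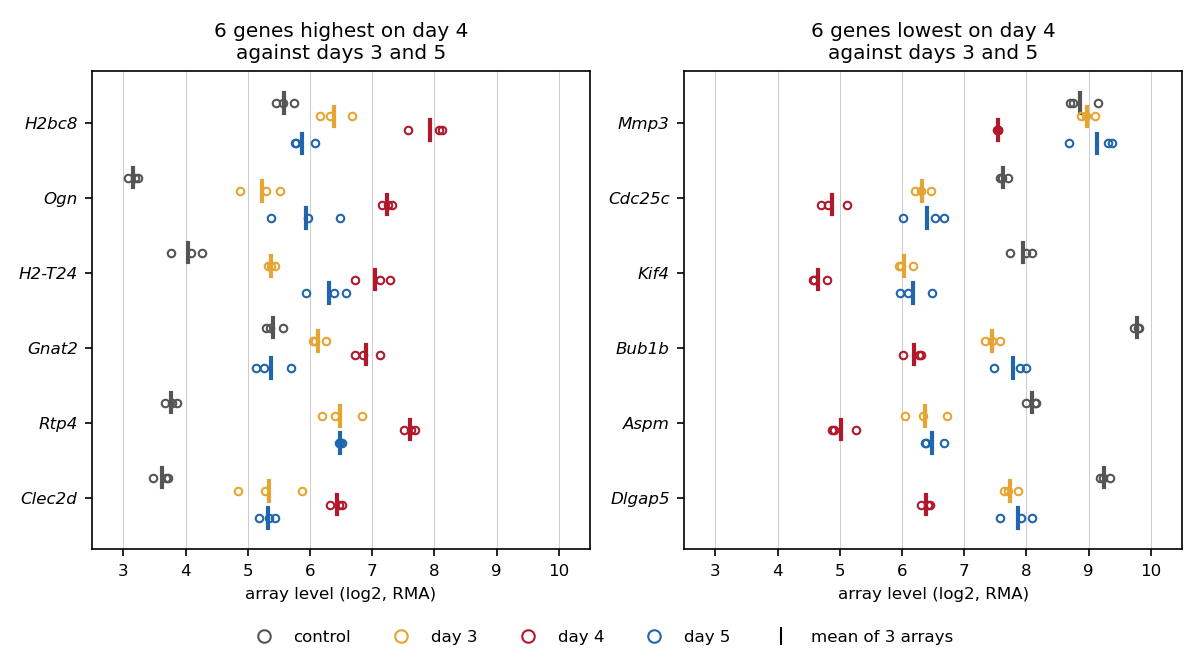
Log2 array level (x axis) of the 6 genes most above (left) and the 6 most below (right) the mean of days 3 and 5 on day 4, with circles for the 3 arrays of control (grey), day 3 (yellow), day 4 (red) and day 5 (blue) and bars for the means. Day 4 lies apart from days 3 and 5 in every gene shown, which was a condition of choosing them. Mmp3 is at 7.53 to 7.55 on day 4 and at 8.69 or above in all other arrays shown.

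Some single genes stood apart on day 4 from days 3 and 5. Mmp3, the protease stromelysin 1, was at 8.96, 9.10 and 8.87 on day 3, at 7.55, 7.54 and 7.53 on day 4 and at 8.69, 9.38 and 9.31 on day 5, a difference of -1.51 ± 0.18 SE (limma adjusted p = 1.87e-05). In control Mmp3 was at 9.15, 8.70 and 8.75, so day 4 lay below every array of the other 3 groups. H2bc8 was at 6.68, 6.16 and 6.33 on day 3, at 8.13, 8.07 and 7.57 on day 4 and at 5.78, 5.76 and 6.08 on day 5 (1.79 ± 0.21 SE, limma adjusted p = 2.31e-05). Ogn was above the mean of both days by 1.66 (SE 0.20) and Gnat2, a transducin of cone cells, by 1.15 (SE 0.15). Linker histone H1f2 was above that mean by 0.91 (SE 0.16), and H2ac4 and H1f5, the histones that fell against control, were not called there.

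Immediate early genes differed in part between day 4 and each neighbouring day. Of 25 such genes 7 were called higher than on day 3 and 1 lower, against 0.587% and 0.727% of all genes. Compared with day 5, 0 were called higher and 8 lower, against 3.29% and 9.06% of all genes. Fos, a transcription factor that cells switch on within minutes of a stimulus, was at 5.48, 5.40 and 5.35 on day 3, at 7.11, 7.14 and 7.38 on day 4 and at 6.84, 7.28 and 7.35 on day 5. Day 4 lay 1.80 above day 3 (SE 0.25, limma adjusted p = 0.000239) and overlapped day 5. Fosb, its relative, was 1.21 above day 3, and Ccn1, a matrix signal, was 1.17 above day 3 and 0.83 below day 5 (log2 difference -0.83). Fosl1, another member of the Fos family, was below the mean of both days by 0.68 (log2 difference -0.68).

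Lipid and glycolysis genes separated day 4 from day 5. Of 19 sterol genes 12 were lower on day 4 than on day 5, against 9.06% of all genes, and 1 was lower than on day 3. Cyp51 was at 5.72, 5.54 and 5.37 on day 4 and at 6.63, 6.77 and 6.83 on day 5 (-1.20, limma adjusted p = 0.00041). Fasn was at 7.52, 7.57 and 7.45 on day 4 and at 8.43, 8.46 and 8.57 on day 5. Of 18 glycolysis genes 10 were lower than on day 5 and 0 lower than on day 3, with Pkm at 10.62, 10.79 and 10.77 on day 5. For the chaperone list 8 of 29 genes were higher on day 4 than on day 5, where day 5 replicate 1 had a list mean of 10.05 and lay above all day 4 arrays, and the part of that array in the count was not tested.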

How the data were processed

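RNA of 4T1 cells was measured on 24 Affymetrix arrays. The deposited values are log2 levels per probe set, which the submitters' processing notes credit to RMA and to Affymetrix Expression Console 1.1, run by the authors. Of 35557 probe sets, 21789 had 1 gene symbol in an annotation of 2016, 1621 had several and 12147 none. The brightest probe set stood for a gene, giving 19938 genes, of which 999 had more than 1. The arrays' number limits precision, and no depth applies. limma 3.58.1 (R 4.3.3) fitted all 24 arrays by group, with 16 residual degrees of freedom and Benjamini-Hochberg adjustment over all genes, and the fit was tested on simulated data. Named genes were the 12 largest rises and falls against control and the 6 against days 3 and 5, each called and without overlap, the 3 strongest called members in each direction of every list, list members needed to show what was not called, and a list of set genes. The comparison's members and the 52 gene lists were chosen with earlier results of these data known. Promoters came from RefSeq (GRCm38.p6), with 15563 tested genes matched, 2628 of them with several starts, any of which could hold a motif. Alternatives covered scaling, weights, probe sets, dim genes, single arrays, 3 arrays that stood apart and the replicate block.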

Additional observations from a re-analysis of the deposited data

Results flagged for a closer look

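Day 4 differed from the mean of days 3 and 5, by a test of that difference in limma at an adjusted p below 0.05, in 598 genes. The named genes farthest above the neighbouring days were H2bc8 (1.79), Ogn (1.66), H2-T24 (1.21), Gnat2 (1.15), Rtp4 (1.13) and Clec2d (1.11), as log2 differences. Those farthest below were Mmp3 (-1.51), Cdc25c (-1.49), Kif4 (-1.46), Bub1b (-1.42), Aspm (-1.41) and Dlgap5 (-1.41).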

How the results depend on the processing

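Against control, 5369 genes were called. Array weights gave 8753, and leaving out single arrays gave 4593 to 4718. Against the mean of days 3 and 5, 598 genes were called. Other settings gave 997 without the 40% dimmest genes, 944 with cyclic loess, 3550 with array weights, 3049 without 3 arrays that stood apart (day 1 replicate 1 and day 9 replicates 2 and 3) and 1487 with only the compared arrays. Leaving out single arrays gave 246 to 677. Against day 3, 262 genes were called, with 396 without the dimmest genes, 2334 with array weights, 1719 without the 3 arrays, 806 with only the compared arrays and 98 to 164 without single arrays. Against day 5, 2461 genes were called, with 4776 with array weights, 5191 without the 3 arrays and 1504 to 2229 without single arrays. Replicate numbers did not pair the samples, with correlations of deviations from -0.07 to 0.03, and the replicate block gave 5348, 588, 253 and 2419 calls in the same order. Of 3687 alternative values of named genes, 3591 either kept a call and its direction or stayed uncalled in either direction. Another 95 kept the direction and lost the call. The mean of all probe sets turned Nlrc5 from -0.64 to 0.03. The causes were not tested. Levels near the array medians limit the size of folds.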
